A study of Mus musculus with 19 samples.

Results

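Adenylyl cyclases make cyclic AMP (cAMP) from ATP, and the 8 genes described here, Adcy1, Adcy2, Adcy3, Adcy5, Adcy6, Adcy7, Adcy8 and Adcy9, encode membrane-bound forms of the enzyme. They were chosen by symbol, with earlier results of these data known, as 8 of the 49592 genes counted in striatal RNA. All 8 passed the filter on low counts, as did 21513 genes in all. The study sequenced bulk striatum from 19 male mice aged 4 months, to ask how loss of the dopamine D2 receptor in prefrontal cortex bears on the striatal response to acute amphetamine. Every mouse, controls included, was of the D2RCre_floxCas9-EGFP line, in which the D2 receptor gene drives Cre, and Cre in turn switches on Cas9 and EGFP. Knockout mice (PFC_D2R-KO) received an AAV5 virus with a guide RNA against the D2 receptor and mCherry in the medial prefrontal cortex, and control mice received AAV5 syn-mCherry there. All mice had saline on 5 days, and on day 9 either saline or amphetamine at 3 mg/kg. The labels give 90 min from amphetamine to sacrifice and no separate time for the saline mice. There were 5 saline control, 5 amphetamine control, 5 saline knockout and 4 amphetamine knockout mice, each with 1 library. The authors' labels of the amphetamine knockout mice skip a number, and their comparison in knockout mice is labelled as made without that animal. Cas9 is restricted to Cre-expressing cells, and the targeted cells lie outside the tissue sequenced, so striatal Drd2 does not check the knockout.

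In striatal projection neurons, dopamine D1 and the adenosine receptor encoded by Adora2a stimulate cyclases through the G protein Golf, and D2 receptors inhibit them through Gi and Go. The cAMP produced activates protein kinase A, and phosphodiesterases break it down. The isoforms differ in how they are controlled: Adcy1 and Adcy8 are stimulated by calcium and calmodulin, Adcy5 and Adcy6 are inhibited by calcium, and Adcy2 and Adcy7 can be stimulated by G protein beta-gamma subunits. Adcy3 is a main cyclase of neuronal primary cilia and of olfactory neurons. Adcy9 is poorly sensitive to forskolin. Adcy5 is known as the main isoform of the striatum.

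Promoter windows in RefSeq on the mouse build GRCm38.p6 were matched by symbol for Adcy1, Adcy2, Adcy3, Adcy5, Adcy7 and Adcy9, which is 6 of the 8 genes. Those of Adcy1 and Adcy9 are shown because over all 19 mice the levels of that pair followed each other most closely, as given further on. Each sequence is the 250 bases before the annotated start, read 5′ to 3′ on the gene's strand. The Adcy9 window overlapped the annotated RefSeq span of Adcy9 itself, while the Adcy1 window did not overlap that of Adcy1. Capitals mark GC boxes (GGGCGG, or CCGCCC on the other strand) and the core of the cAMP response element (TGACG, or CGTCA on the other strand).
Adcy1: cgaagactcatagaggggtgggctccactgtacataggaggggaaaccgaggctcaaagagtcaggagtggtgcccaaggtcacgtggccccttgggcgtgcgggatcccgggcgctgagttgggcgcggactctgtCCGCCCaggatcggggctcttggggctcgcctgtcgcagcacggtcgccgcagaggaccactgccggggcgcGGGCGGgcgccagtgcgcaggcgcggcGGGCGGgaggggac
Adcy9: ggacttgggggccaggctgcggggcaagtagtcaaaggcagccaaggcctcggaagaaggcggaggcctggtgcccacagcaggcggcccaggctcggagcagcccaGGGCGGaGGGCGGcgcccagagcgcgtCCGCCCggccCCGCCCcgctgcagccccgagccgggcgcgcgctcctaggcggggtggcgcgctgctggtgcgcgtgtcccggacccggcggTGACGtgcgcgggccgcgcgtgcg
The Adcy1 window, chr11:7063183-7063432 on the plus strand, held 3 GC boxes and 0 copies of the core, at 71.2% GC. The Adcy9 window, chr16:4420499-4420748 on the minus strand, held 4 GC boxes and 1 copy of the core, at 78.8% GC. Neither held a full cAMP response element (TGACGTCA, which contains the core) or a TATA box (TATAAA). Over all 32851 RefSeq windows of this length, counted on both strands, 32.7% held a GC box, 17.8% the core, 1.55% the full element and 12.4% the TATA box. A match describes letters and is not a measured binding site.

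The libraries held 57003408 to 85536346 counts, and no library was a copy of another, since chi-square divided by its degrees of freedom was at least 10.3 for each pair. The labels name each library as a separate mouse. Levels of each gene are given as CPM, counts scaled to library size and, by the TMM factor, to library composition. The lowest count of any of the 8 genes in a library was 311, so counting error was small beside the spread between mice. Marker lists for 12 cell types were scored in each library as the mean log2 CPM of their genes. Defining genes of striatal projection neurons were present in every library, with mean levels between 71.4 and 850 CPM for the 14 markers. Cortical projection neuron markers were also present, at means from 2.97 to 329 CPM for 10 markers, with none at 0 in a library. On principal components, 4 libraries stood apart: amphetamine knockout mice 2 and 3, saline knockout mouse 3 and saline control mouse 5. Amphetamine knockout mouse 3 had the lowest striatal score (6.62, against 8.06 for the highest mouse of its group) and the highest cortical score (5.24). Amphetamine knockout mouse 2 had the highest choroid plexus score, 4.10. Where leaving them out moves a value by much, that value is given too, as an alternative chosen after seeing the data. Of the amphetamine knockout group, only mice 1 and 4 remain in that alternative.

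Compared per length, on the deposited FPKM (fragments scaled to gene length and library size), Adcy5 was the most abundant cyclase, at 105 ± 24.4 FPKM (SD, n = 19). Adcy2 followed at 27.0 ± 2.26 FPKM (SD, n = 19), and the ratio of these mean levels was 3.88. The Adcy5 and Adcy2 ranges did not overlap. Adcy1 (22.7 ± 7.76 FPKM), Adcy3 (11.4 ± 1.257 FPKM) and Adcy9 (8.49 ± 2.02 FPKM) came next (SD, n = 19). Adcy6 (6.03 ± 0.986 FPKM), Adcy8 (3.01 ± 0.776 FPKM) and Adcy7 (1.68 ± 0.498 FPKM) were the least abundant (SD, n = 19). The other 6 neighbouring pairs overlapped in range. Adcy2 exceeded Adcy1 in 13 of 19 mice, Adcy9 exceeded Adcy6 in 17, and Adcy1 exceeded Adcy3 in 18, as Adcy3 did Adcy9. Within each mouse Adcy6 was above Adcy8, and Adcy8 above Adcy7, in 19 of 19.

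**Figure D1:**
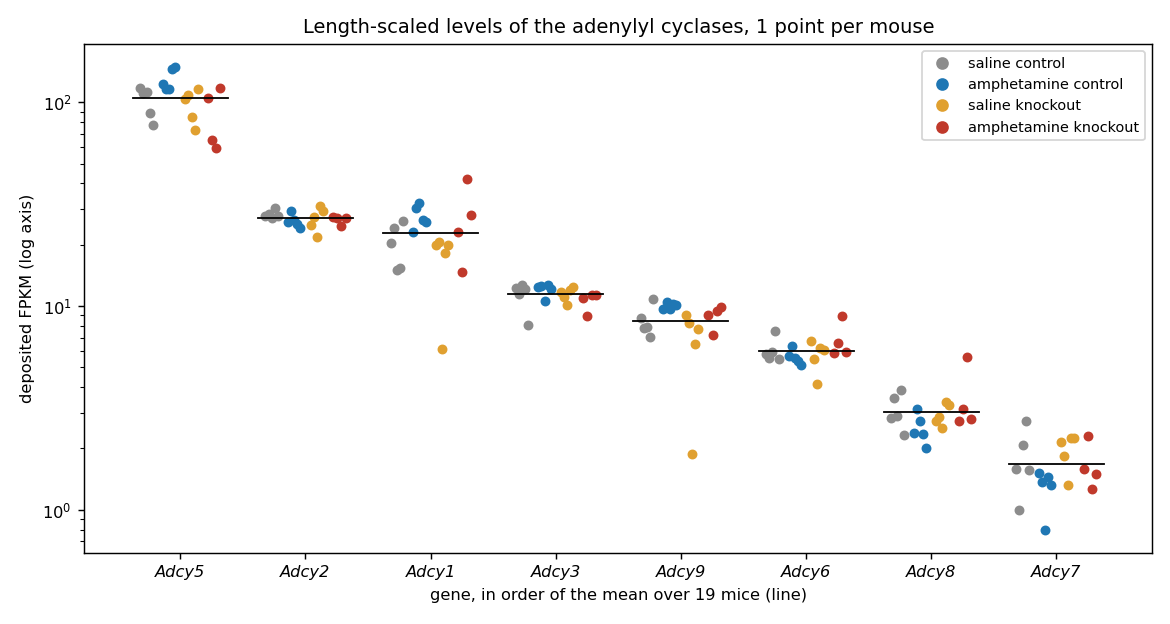
Deposited FPKM of the 8 adenylyl cyclases on a log axis, 1 point per mouse coloured by group, with the mean over 19 mice as a line and genes in order of that mean. Adcy5 is above Adcy2 in every mouse, and the low Adcy1 and Adcy9 points belong to saline knockout mouse 3.

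Adcy5 made up a mean of 56.1% of the summed FPKM of the 8 genes. Its share was lowest in amphetamine knockout mouse 3, at 36.7%, and highest in amphetamine control mouse 5, at 64.9%. Adcy2 held a mean share of 14.9% and Adcy1 of 12.2%. The Adcy1 share ran from 4.64% in saline knockout mouse 3 to 25.8% in amphetamine knockout mouse 3. The Adcy7 share ran from 0.391% to 1.69%. Amphetamine knockout mouse 3 therefore held both the lowest Adcy5 share and the highest Adcy1 share.

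**Figure D2:**
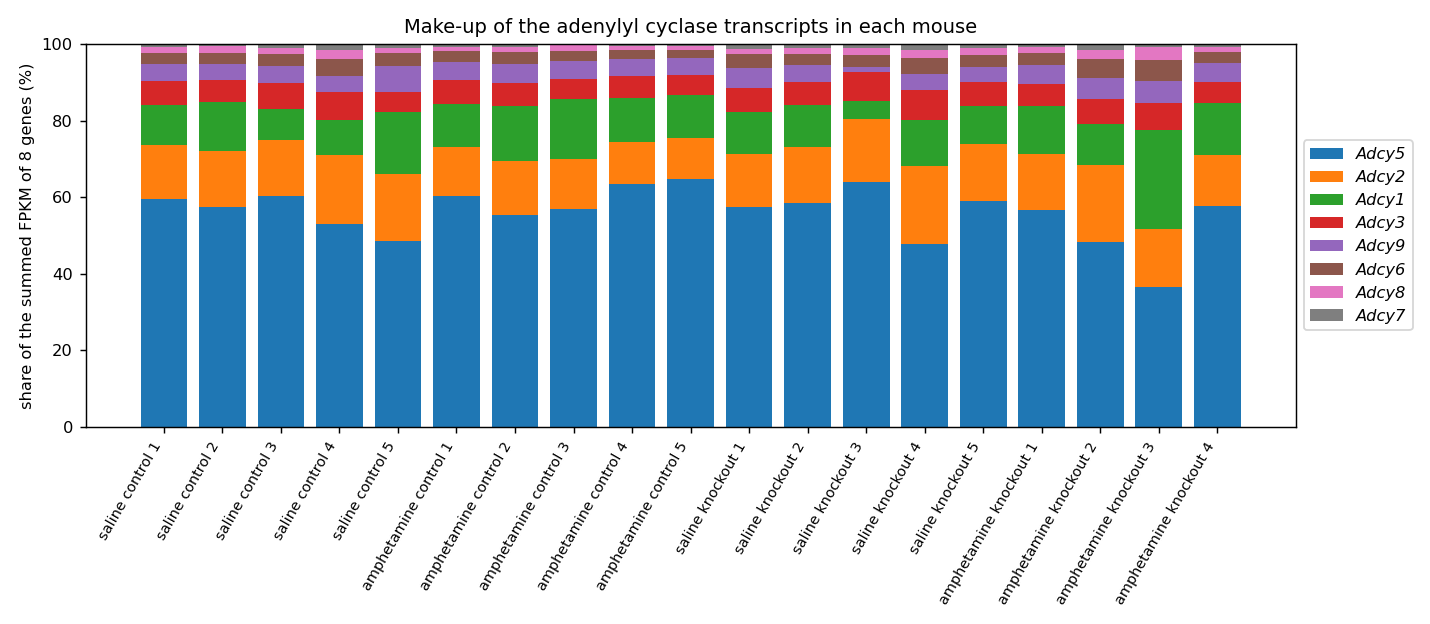
Share of the summed FPKM of the 8 cyclases in percent, 1 stacked bar per mouse. Adcy5 is the largest share in each mouse, and the bar of amphetamine knockout mouse 3 has the smallest Adcy5 share (36.7%) and the largest Adcy1 share (25.8%).

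The cyclases differed in how much they varied over the 19 mice. Adcy2 was the steadiest, with a coefficient of variation of 8.33% and a highest level 1.42 times the lowest. Adcy1 varied most over all 19, with a coefficient of 33.9% and a 6.68-fold range, and Adcy7 had 29.7%. Among 15225 genes with a mean of at least 1 CPM, whose median coefficient was 13.2%, Adcy1 stood at the 94.7th percentile, Adcy7 at the 92.1st and Adcy2 at the 17.1st. With the 4 libraries that stand apart left out, Adcy1 had a coefficient of 22.04% and a 2.14-fold range, below Adcy7 at 30.7% and 3.42-fold, so the order of this pair rests on them. Over all 19 mice, Adcy8 (25.5%), Adcy9 (23.6%), Adcy5 (23.2%), Adcy6 (16.03%) and Adcy3 (10.98%) lay between.

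**Figure D3:**
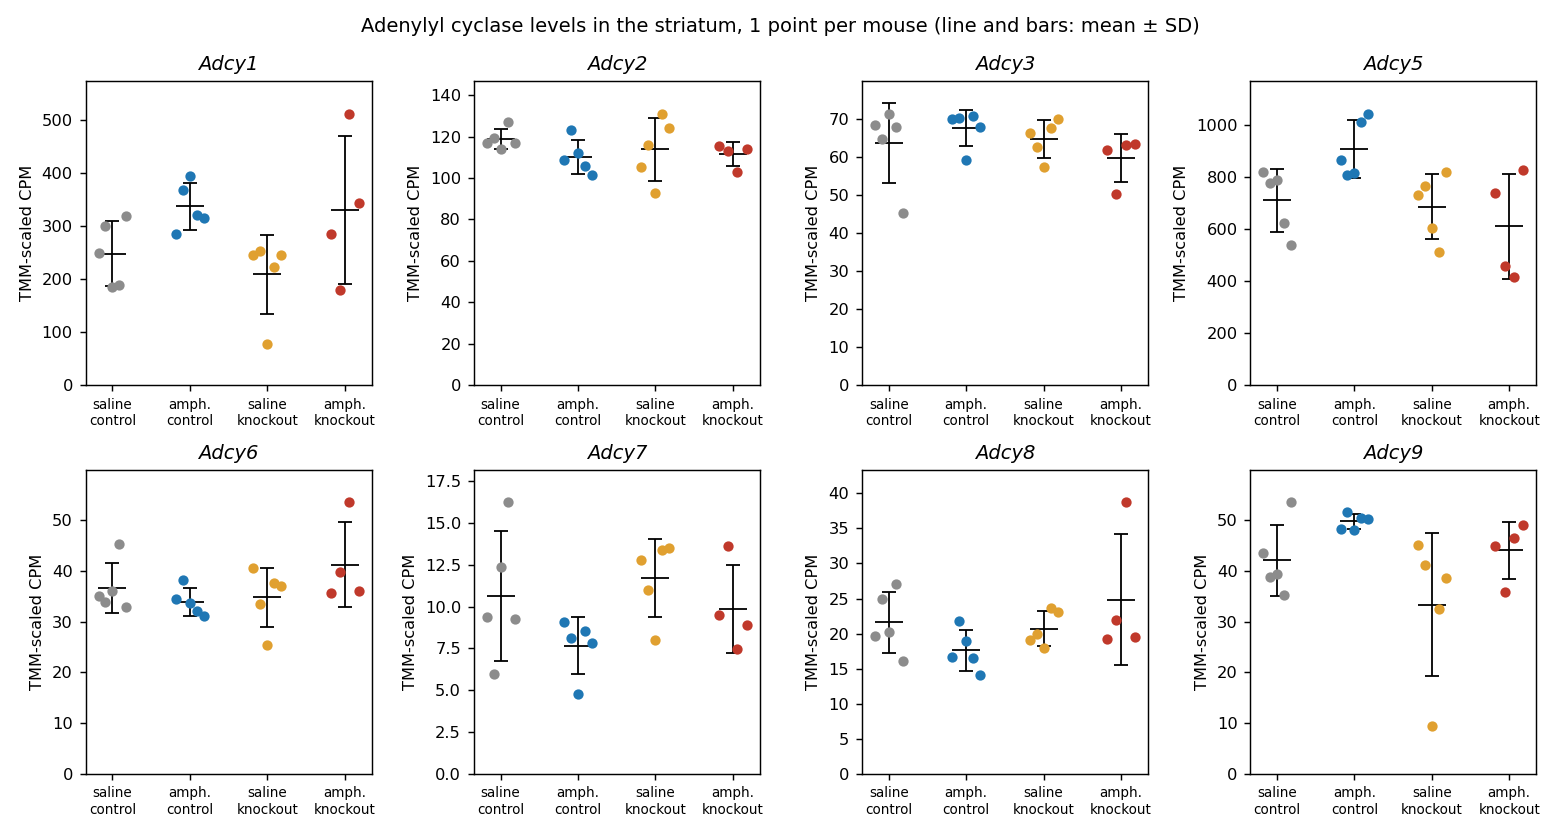
TMM-scaled CPM of each cyclase in each mouse by group, with lines and bars for mean ± SD and every axis starting at 0. The Adcy5 mean is highest in amphetamine control mice, and single points of Adcy1, Adcy8 and Adcy9 lie far from the rest of their group.

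Of the calcium-inhibited forms, Adcy5 (ENSMUSG00000022840.10, chromosome 16, 34975247 to 35126108, GRCm39) had 818, 778, 787, 621 and 540 CPM in saline control mice 1 to 5. Amphetamine control mice had 863, 808, 815, 1011 and 1042 CPM. Saline knockout mice had 729, 765, 603, 512 and 818 CPM, and amphetamine knockout mice 737, 458, 415 and 826 CPM. In the control mice, 3 of 5 with amphetamine were above every saline mouse, but the groups overlapped, and amphetamine knockout mice fell into a low pair, mice 2 and 3, and a high pair, mice 1 and 4. Between the amphetamine groups, Adcy5 had the lowest p of the 8 genes, with a log2 fold change of -0.58 ± 0.19 (SE) in knockout against control and an edgeR adjusted p of 0.237, so it was not called. In bulk tissue, fewer cells of a type and less RNA per cell cannot be told apart. Striatal projection neuron scores in these groups ran from 6.62 to 8.06 in knockout and from 8.10 to 8.46 in control mice, and their part in the difference was not tested. Without the 4 libraries that stand apart, only mice 1 and 4, the high pair, remained of the amphetamine knockout group. The Adcy5 difference was then -0.22, with an edgeR adjusted p of 0.946. Amphetamine against saline gave 0.36 ± 0.17 in control mice (edgeR adjusted p = 0.434) and -0.17 ± 0.19 in knockout mice (edgeR adjusted p = 0.722). The latter was 0.14 without the 4 libraries.

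Adcy6 (ENSMUSG00000022994.10, chromosome 15, 98487854 to 98507957) lay between 25.4 CPM, in saline knockout mouse 3, and 53.5 CPM, in amphetamine knockout mouse 3. Its means were 36.6 ± 4.98 CPM in saline control (SD, n = 5), 33.9 ± 2.74 in amphetamine control (SD, n = 5), 34.8 ± 5.79 in saline knockout (SD, n = 5) and 41.2 ± 8.41 in amphetamine knockout mice (SD, n = 4). Knockout exceeded control under amphetamine by a log2 fold change of 0.28 ± 0.13 that was not called (edgeR adjusted p = 0.384). It was 0.13 without amphetamine knockout mouse 3. The amphetamine response of knockout mice, 0.24 ± 0.13 (edgeR adjusted p = 0.455), became -0.055 without the 4 libraries. The groups overlapped in each comparison.

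Of the calcium-stimulated forms, Adcy1 (ENSMUSG00000020431.6, chromosome 11, 7013489 to 7128506) had 249.4, 299, 185, 188 and 318 CPM in saline control mice 1 to 5. Amphetamine control mice had 284, 368, 395, 321 and 316 CPM. Saline knockout mice had 244, 253, 76.5, 223 and 246 CPM, and amphetamine knockout mice 284, 179, 511 and 344 CPM. The high value of 511 and the low value of 76.5 belong to libraries that stand apart, and the saline and amphetamine groups overlapped in both genotypes. Amphetamine against saline gave log2 fold changes of 0.44 ± 0.28 in control mice (edgeR adjusted p = 0.577) and 0.66 ± 0.30 in knockout mice (edgeR adjusted p = 0.397). Adcy1 was not called in either, and the knockout value was 0.37 without amphetamine knockout mouse 3 and 0.38 without the 4 libraries. Cortical projection neuron scores ran from 2.37 to 4.36 in saline control, 3.98 to 5.12 in amphetamine control, 2.93 to 4.24 in saline knockout and 2.94 to 5.24 in amphetamine knockout mice. Their part in the Adcy1 differences was not tested.

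Adcy8 (ENSMUSG00000022376.9, chromosome 15, 64568933 to 64794145), the other calcium-stimulated form, had 19.7, 24.9, 20.2, 27.0 and 16.1 CPM in saline control mice 1 to 5. Amphetamine control mice had 16.7, 21.9, 18.96, 16.5 and 14.1 CPM. Saline knockout mice had 19.04, 19.9, 17.9, 23.6 and 23.0 CPM, and amphetamine knockout mice 19.2, 21.9, 38.7 and 19.6 CPM. The value of 38.7 in amphetamine knockout mouse 3 stood above all others, and the groups overlapped. Knockout against control under amphetamine gave a log2 fold change of 0.50 ± 0.19 (edgeR adjusted p = 0.280), which was 0.20 without that mouse and 0.14 without the 4 libraries. The difference between the amphetamine responses of the genotypes was 0.56 ± 0.26 (edgeR adjusted p = 0.537), and 0.26 without that mouse.

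Adcy3 (ENSMUSG00000020654.16, chromosome 12, 4183104 to 4263525) stayed between 45.2 CPM, in saline control mouse 5, and 71.4 CPM, in saline control mouse 3. Its largest difference among pairs of groups was a log2 fold change of -0.18 ± 0.11 in knockout against control under amphetamine (edgeR adjusted p = 0.524). All 4 pairs of groups overlapped, as they did for the 7 other genes.

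Of the forms that beta-gamma subunits can stimulate, Adcy2 (ENSMUSG00000021536.8, chromosome 13, 68768162 to 69147660) kept nearly the same level in all groups. Its means were 119 ± 4.97 CPM in saline control (SD, n = 5), 110.2 ± 8.16 in amphetamine control (SD, n = 5), 114 ± 15.3 in saline knockout (SD, n = 5) and 111 ± 5.79 in amphetamine knockout mice (SD, n = 4). The widest fitted difference was -0.11 ± 0.081 on the log2 scale, in amphetamine against saline control mice (edgeR adjusted p = 0.639).

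Adcy7 (ENSMUSG00000031659.14, chromosome 8, 88999031 to 89056590), the least abundant of the 8, had 9.39, 5.94, 12.4, 16.3 and 9.26 CPM in saline control mice 1 to 5. Amphetamine control mice had 9.06, 8.15, 4.75, 8.57 and 7.85 CPM. Saline knockout mice had 12.8, 10.97, 7.99, 13.4 and 13.5 CPM, and amphetamine knockout mice 9.50, 13.6, 7.48 and 8.89 CPM. Saline control mice spread widely, and 4 of 5 amphetamine control mice lay within their range. In control mice the amphetamine difference was -0.47 ± 0.23 on the log2 scale (edgeR adjusted p = 0.434), and -0.27 without saline control mouse 4.

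Adcy9 (ENSMUSG00000005580.12, chromosome 16, 4105393 to 4238362) had 43.5, 38.8, 39.3, 35.2 and 53.5 CPM in saline control mice 1 to 5, and amphetamine control mice had 48.2, 51.7, 48.1, 50.4 and 50.3 CPM. Saline knockout mice had 45.1, 41.1, 9.45, 32.5 and 38.5 CPM, and amphetamine knockout mice 44.8, 35.9, 46.4 and 48.9 CPM. The 9.45 CPM of saline knockout mouse 3, which also had the lowest Adcy1 level, lay far below every other mouse. Knockout against control under saline gave a log2 fold change of -0.33 ± 0.26 (edgeR adjusted p = 0.696), and -0.10 without that mouse.

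Read by comparison, no cyclase passed an edgeR adjusted p of 0.05 in any of the 5, and few genes did at all. In control mice, amphetamine against saline called 0 of the 8, where 0.00465% of all tested genes were called; at an unadjusted p under 0.05 the counts were 0 of 8 and 11.8%. Without the 4 libraries that stand apart, 5 of 8 had an unadjusted p under 0.05 in control mice (Adcy1, Adcy5 and Adcy9 higher, Adcy7 and Adcy8 lower), where 18.7% of all genes did. None was called, and the lowest edgeR adjusted p values were 0.0517 for Adcy9 (log2 fold change 0.34) and 0.0655 for Adcy1 (0.54). Of the 4 libraries, only saline control mouse 5 is a control mouse, and the others enter this comparison through the fit over all groups. Leaving out saline control mouse 5 alone also gave 0.34 for Adcy9 and 0.54 for Adcy1. With each of the 10 control mice left out in turn, the lowest edgeR adjusted p was 0.677 for Adcy9 and 0.469 for Adcy1. In knockout mice the same comparison called 0 of 8 (0.00465% of all genes), and 1 of 8, Adcy1, had an unadjusted p under 0.05, where 12.1% of all genes did. Without the 4 libraries it was 2 of 8, Adcy1 and Adcy9 higher, where 9.52% of all genes passed. Knockout against control under saline called 0 of 8, where 0% of all genes were called, with 0 of 8 and 7.94% at the unadjusted level. Under amphetamine the genotypes gave 0 called of 8 (0% of all genes) and 3 at the unadjusted level, Adcy5 lower and Adcy6 and Adcy8 higher, where 12.8% of all genes passed. Without the 4 libraries, 0 of 8 passed there at the unadjusted level, against 4.34% of all genes. The difference of the amphetamine responses had 0 called of 8 (0% of all genes) and 1, Adcy8, at the unadjusted level, against 9.25%. Leaving out the 4 libraries gave 0 of 8 at that level, against 3.93%. The comparisons share groups, so their values are not independent of each other.

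No cyclase had groups that did not overlap, while 3.9% of all genes did between control saline and amphetamine mice, 5.07% between the knockout groups, 0.911% between the saline groups and 6.79% between the amphetamine groups. Medians over the 8 genes were -0.0092 on the log2 scale for amphetamine in control mice (all genes: -0.0074), 0.11 in knockout mice (all genes: -0.0059), -0.061 for knockout against control under saline (all genes: 0.0046) and -0.0067 under amphetamine (all genes: 0.0049). For the difference of the amphetamine responses the median was 0.19 (all genes: 0.0064), with 6 genes above 0 and 2 below. Without the 4 libraries that stand apart it was -0.0072, with 4 genes above 0 and 4 below. The other medians were then -0.068 for amphetamine in control mice, -0.056 in knockout mice, -0.012 for the saline genotypes and -0.014 under amphetamine.

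**Figure D4:**
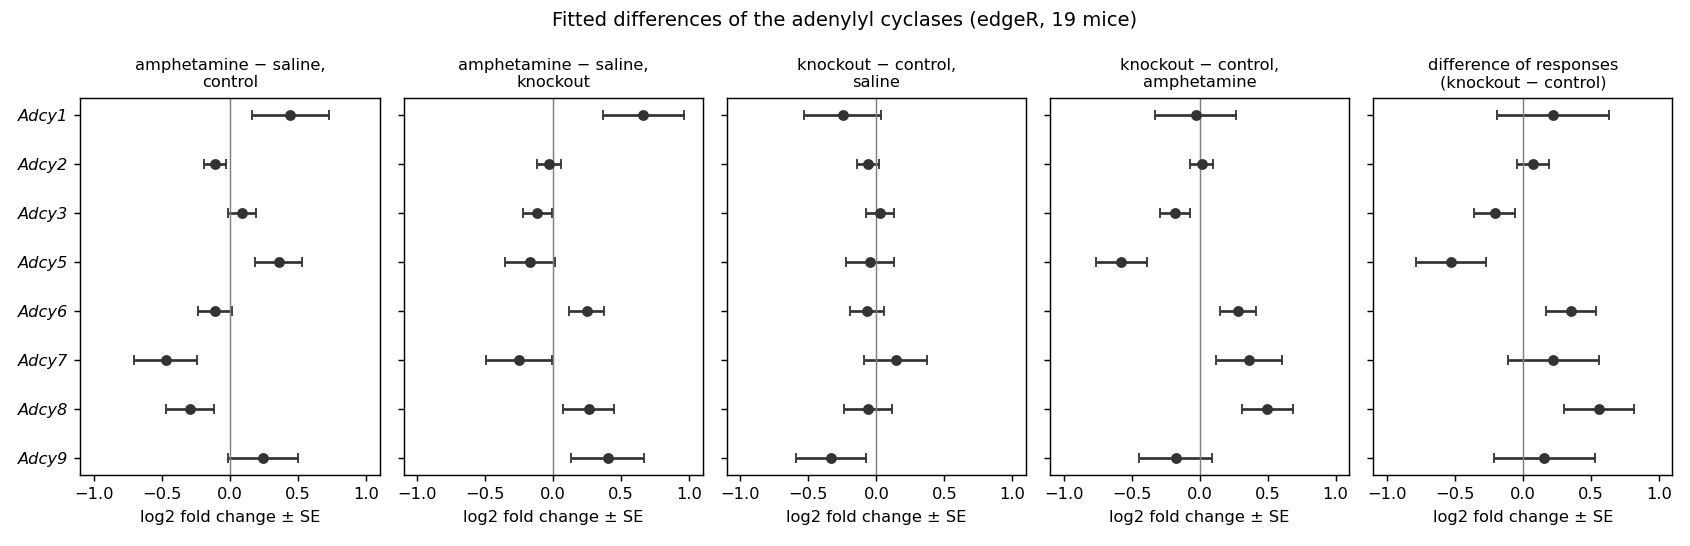
Fitted log2 fold changes of the 8 cyclases in the 5 comparisons, with bars for ± 1 standard error from edgeR over 19 mice. In knockout against control under amphetamine, Adcy5 lies at -0.58 and Adcy8 at 0.50, and no value in the plot passed the adjusted threshold.

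The authors' deposited table, from DESeq2, called 0 of the 8 as well, at an adjusted p under 0.05. In control mice it called 4.21% of the genes to which it gave an adjusted p, and its smallest adjusted p values for cyclases were 0.0809 for Adcy5 (log2 fold change 0.36) and 0.0835 for Adcy1 (0.44). In the authors' deposited table for knockout mice, where 0.665% of genes were called, Adcy1 had 0.67 with an adjusted p of 0.454. For the genotypes under saline the authors' deposited table called 0.00439% of genes, and the smallest adjusted p among the cyclases was 0.907.

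Across the 19 mice, Adcy5 levels followed the striatal projection neuron score (r = 0.909, rho = 0.835, permutation p = 1.0e-05, the smallest that 100000 resamples can give, adjusted p = 8.0e-05 over 16 relations). With group means removed r was 0.857, and without amphetamine knockout mice 2 and 3, the mice farthest from the median score, also 0.857. Saline knockout mouse 3 was an exception, with the highest striatal score of its group and the second lowest Adcy5 level. Pde10a, a striatal phosphodiesterase that is itself among the 14 markers, was the gene closest to Adcy5.

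Adcy1 followed the cortical projection neuron score instead (r = 0.829, rho = 0.925, permutation adjusted p = 8.0e-05). Its r was 0.793 with group means removed and 0.928 without saline control mouse 3 and saline knockout mouse 3. Its relation to the striatal score had r = -0.12 (permutation adjusted p = 0.716). Adcy9 and the cortical score gave r = 0.504, which did not pass after adjustment (permutation adjusted p = 0.0615), and rho = 0.632, which did (permutation adjusted p = 0.0146). Without saline control mouse 3 and saline knockout mouse 3 its r was 0.559 (permutation adjusted p = 0.0449). With group means removed it was 0.402 and did not pass (permutation adjusted p = 0.235).

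Adcy6 and Adcy8 were higher in mice with a lower striatal score. Adcy8 had r = -0.79 and rho = -0.63 (permutation adjusted p = 0.00107), with -0.71 when group means were removed and -0.61 without amphetamine knockout mice 2 and 3. Adcy6 had r = -0.76 and rho = -0.69 (permutation adjusted p = 0.00128), with -0.73 when group means were removed. Without the same 2 mice the Adcy6 relation was -0.53 and no longer passed (permutation adjusted p = 0.0610), so it rests in part on them. Adcy7 was higher where the cortical score was lower (r = -0.65, rho = -0.67, permutation adjusted p = 0.00947), at -0.56 with group means removed and -0.78 without saline control mouse 3 and saline knockout mouse 3. Among 96 relations to all 12 marker scores, computed after the data were seen, Adcy7 rose with the pallidal and septal neuron score (r = 0.860, rho = 0.849, permutation adjusted p = 6.4e-04), at 0.809 with group means removed and 0.781 without amphetamine control mouse 3 and amphetamine knockout mouse 3. Adcy7 also passed with the hypothalamic (r = 0.758, permutation adjusted p = 0.00312), oligodendrocyte precursor (r = 0.726, permutation adjusted p = 0.00617) and cholinergic neuron scores (r = 0.646, permutation adjusted p = 0.0316). The hypothalamic relation was 0.595 without amphetamine control mouse 3 and saline control mouse 2 and no longer passed (permutation adjusted p = 0.0589). Of the 10 hypothalamic markers, 3 were at 0 in a library. Other cyclases passed among the 96 by rho and not by r. Among them were Adcy6 with the oligodendrocyte precursor score (rho = 0.77, permutation adjusted p = 0.00352) and Adcy1 with 2 scores. For Adcy1 these were the cholinergic neuron (rho = -0.82, permutation adjusted p = 0.00144) and pallidal and septal neuron scores (rho = -0.79, permutation adjusted p = 0.0023). In all, 5 of the 16 relations passed by r, 5 by r with group means removed, 7 by rho and 7 by r without the 2 mice farthest from the median score. Adcy2 and Adcy7 with the striatal score passed in the last of these, without amphetamine knockout mice 2 and 3. There r went from -0.19 to -0.67 for Adcy2 (permutation adjusted p = 0.0152). For Adcy7 it went from -0.30 to -0.58 (permutation adjusted p = 0.0376). Adcy7 also passed with this score by rho over all 19 mice (rho = -0.55, permutation adjusted p = 0.0383), while Adcy2 did not.

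**Figure D5:**
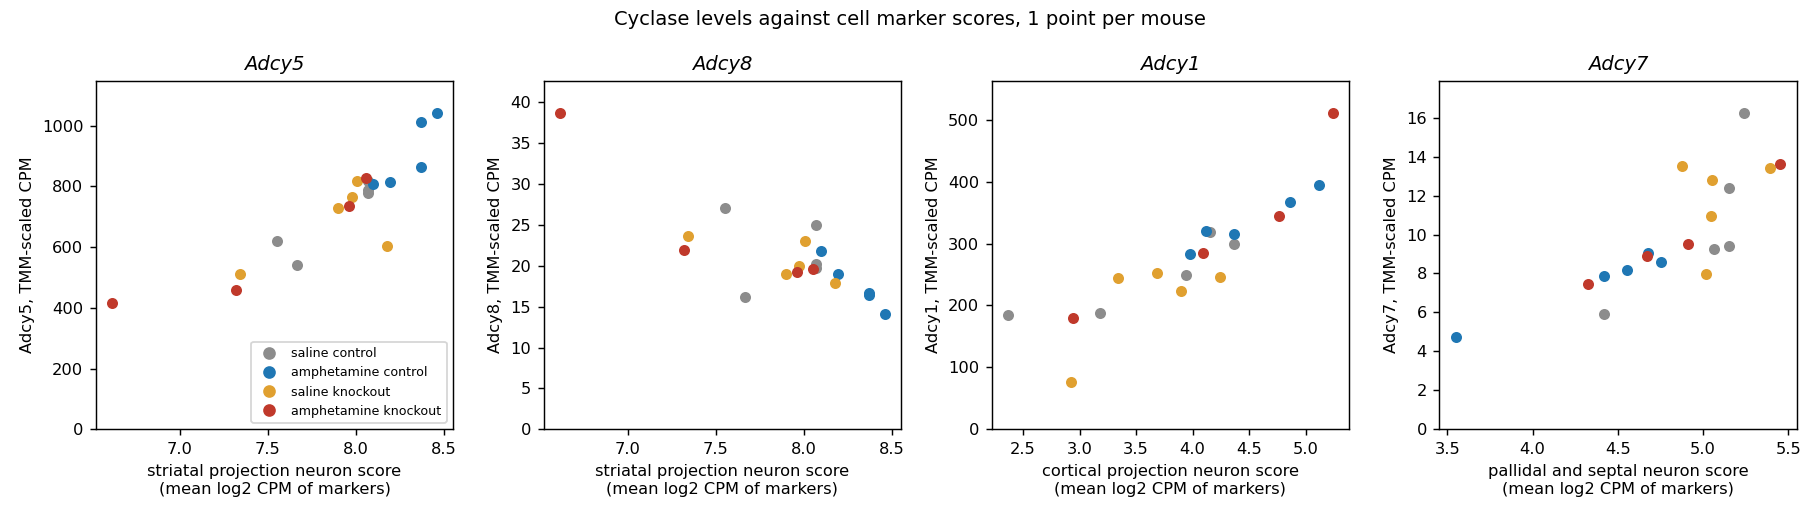
Each panel plots a cyclase in TMM-scaled CPM against a marker score (mean log2 CPM of the list), 1 point per mouse coloured by group. Adcy5 rises with the striatal score, Adcy1 with the cortical score and Adcy7 with the pallidal and septal score, while the Adcy8 panel has amphetamine knockout mouse 3 alone at a score of 6.62.

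Among the 28 pairs of cyclases, 3 passed by r after adjustment. Over all 19 mice, Adcy1 and Adcy9 were the closest pair (r = 0.871, rho = 0.8, permutation adjusted p = 8.4e-04), with 0.837 after group means were removed and 0.804 without amphetamine knockout mouse 3 and saline knockout mouse 3. Adcy6 and Adcy8 also moved together (r = 0.787, rho = 0.733, permutation adjusted p = 0.00378), with 0.710 without those 2 mice. Adcy5 and Adcy8 moved in opposite directions (r = -0.61, rho = -0.48, permutation adjusted p = 0.0495). With group means removed r was -0.45 (permutation adjusted p = 0.218), and without amphetamine knockout mice 2 and 3 r was -0.39 and no longer passed (permutation adjusted p = 0.268).

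Adcy1 and Adcy7 moved in opposite directions by rho (-0.70, permutation adjusted p = 0.0113) but did not pass by r (-0.42, permutation adjusted p = 0.292). Without amphetamine knockout mouse 3 and saline knockout mouse 3 their r was -0.84 (permutation adjusted p = 5.6e-04), farther from 0 than that of Adcy1 and Adcy9. With group means removed it was -0.22 (permutation adjusted p = 0.515).

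The genes most like each cyclase were ranked by r of log2 CPM over 19 mice among 15224 others, as a description that shares the libraries' composition. For Adcy5 they were Pde10a (0.981), Pde7b, a cAMP phosphodiesterase (0.968), and Bcr (0.964). Adcy1 was closest to Kcnma1, the BK potassium channel (0.968), Iqsec2 (0.965) and Bsn, the presynaptic scaffold bassoon (0.962). For Adcy9 these were the centrosomal gene Pcnt (0.987), Rapgef2 (0.976) and Nhsl2 (0.974). Adcy7 was nearest Rims3 (0.960), BC035947 (0.943) and Clcn5 (0.937). Adcy3 was nearest Recql5 (0.914), Asic1, an acid-sensing ion channel (0.912), and Map3k12 (0.910). Adcy2 was nearest Kif26a (0.915), Cadps (0.851) and Dpf3 (0.842), Adcy6 nearest Tbc1d1 (0.908), Mturn (0.908) and Gm33533 (0.882), and Adcy8 nearest Dact1 (0.907), Nectin1 (0.887) and Clec11a (0.881). In the 15 other libraries, without the 4 that stand apart, r was 0.967 for Adcy5 with Pde10a, 0.914 for Adcy9 with Pcnt, 0.716 for Adcy3 with Recql5 and 0.719 for Adcy6 with Tbc1d1.

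Of 93 other genes of cAMP signalling in 9 lists, edgeR called 0 at an adjusted p under 0.05 in each comparison. Unadjusted p values under 0.05 were found for 30.1% of them in control mice under amphetamine (20 higher and 8 lower), where 11.8% of all genes passed, and for 40.9% in knockout against control under amphetamine (10 higher and 28 lower), where 12.8% did. In knockout mice under amphetamine it was 7.53% (5 higher, 2 lower; all genes 12.1%) and for the saline genotypes 2.15% (0 higher, 2 lower; all genes 7.94%). For the difference of the amphetamine responses it was 19.4% (3 higher, 15 lower), where 9.25% of all genes passed. Without the 4 libraries that stand apart, the share in knockout against control under amphetamine was 5.32% of 94 genes (2 higher, 3 lower), where 4.34% of all genes passed, and for the difference of responses 3.19%, where 3.93% did. These shares rest on amphetamine knockout mice 1 and 4 alone for that group. In control mice the share without the 4 libraries was 38.3% (27 higher, 9 lower; all genes 18.7%), and edgeR called 3 genes, all higher: Adrb1, Ppp3ca and Ppp3r1. Of the 4 libraries, only saline control mouse 5 is a control mouse, and leaving it out alone called 4 of all genes tested. Some of the cAMP signalling genes are also striatal markers, among them Drd1, Adora2a, Ppp1r1b and Pde10a, so they share the striatal score given above.

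In knockout against control under amphetamine, stimulatory G protein genes gave 1 higher and 3 lower of 4 at the unadjusted level. Gng7, the gamma subunit that Golf uses, had a log2 fold change of -0.55 ± 0.19 (edgeR adjusted p = 0.263). Stimulatory receptors gave 2 higher and 5 lower of 17, with Drd1, the D1 receptor, at -0.79 ± 0.25 (edgeR adjusted p = 0.227). Inhibitory receptors gave 2 higher and 8 lower of 23, with Drd2, the D2 receptor, at -1.02 (edgeR adjusted p = 0.223). Drd2 had 125 ± 31.9 CPM in saline control (SD, n = 5), 173 ± 25.6 in amphetamine control (SD, n = 5), 105 ± 19.1 in saline knockout (SD, n = 5) and 85.4 ± 40.0 in amphetamine knockout mice (SD, n = 4). Phosphodiesterases gave 0 higher and 5 lower of 14, led by Pde1b at -0.70 ± 0.21 (edgeR adjusted p = 0.225). The cAMP targets gave 1 higher and 3 lower of 9, with Ppp1r1b, which encodes DARPP-32, at -0.78 ± 0.26 (edgeR adjusted p = 0.2501). On the other side, cAMP effectors gave 3 higher and 1 lower of 11, led by Prkar2a, a regulatory subunit of protein kinase A, at 0.23 ± 0.079 (edgeR adjusted p = 0.2501). Inhibitory G protein genes gave 1 higher and 0 lower of 5, the 1 being Gnai2 at 0.21 ± 0.076 (edgeR adjusted p = 0.266). When the 4 libraries were left out, the log2 fold changes were -0.18 for Gng7, -0.35 for Drd1, -0.56 for Drd2, -0.32 for Pde1b, -0.37 for Ppp1r1b, 0.14 for Prkar2a and 0.13 for Gnai2, each with an edgeR adjusted p of 0.946. For the amphetamine knockout group these values rest on mice 1 and 4 alone.

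The calcium regulators of cyclases, calmodulin, its kinases and calcineurin, were all above 0 in control mice under amphetamine (9 of 9, 6 at an unadjusted p under 0.05), with a median log2 fold change of 0.23 against -0.0074 over all genes. In knockout against control under amphetamine 8 of 9 were below 0, 3 of them at that level, with a median of -0.15. Ppp3ca, a catalytic subunit of calcineurin, had 0.49 ± 0.13 in the first (edgeR adjusted p = 0.183) and -0.52 ± 0.14 in the second (edgeR adjusted p = 0.224). Leaving out the 4 libraries gave 0.48 (edgeR adjusted p = 0.0430) and -0.32 (edgeR adjusted p = 0.946). Of the other cyclases, Adcy4 had group means of 2.58 to 3.41 CPM, and Adcy10, the soluble form, did not pass the filter.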

How the data were processed

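Total RNA from dissected striatum was sequenced, 1 library per mouse. The authors deposited raw counts per gene for each mouse. Per the submitters' processing notes, FastQC 0.11.5, Trim Galore 0.5.0, STAR 2.6.0c, HTSeq 0.6.1p2, DESeq2 1.26.0s, R 3.6.1 and GRCm39 were used; roles, settings, annotation release and strand setting were not stated in any source used here. The authors also deposited tables with FPKM per mouse, log2 fold changes, p-values and a mean normalized signal per gene, per the file headers; the gene length behind FPKM is not stated. FPKM was used to compare levels between genes and to compute each gene's share of the summed FPKM in a mouse. Those shares were also compared between mice.

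Counts were analysed with edgeR 4.0.16 (TMM scaling, filterByExpr, robust quasi-likelihood test) in R 4.3.3. Means of 4 groups were fitted over 19 mice for 5 contrasts, with Benjamini-Hochberg adjustment over 21513 genes and a threshold of 0.05. Standard errors are the log2 fold change divided by the root of F. The deposited log2 values and p-values are the authors' own. Relations across mice used 100000 permutations, two-sided (numpy 2.4.6), with ranks for rho from scipy 1.17.1. They took log2 CPM of the cyclases without a prior count. Marker scores and the ranking of genes most alike used log2 CPM with a prior count of 2. The test was checked on simulated counts. Alternatives were RLE scaling, no filter, DESeq2 1.42.0, limma 3.58.1 (voom), a replicate block, only the groups compared, and leaving out libraries.

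The named genes are all 8 cyclases, some genes of smallest p in a pathway list and the 3 genes most like each cyclase; Pde10a and Adora2a as shared markers, and Ppp3r1, were named after their values were seen. Members and lists were chosen with earlier results of these data known. Without a stated strand setting, reads from overlapping antisense genes cannot be told apart. No protein sequence was used here.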

Additional observations from a re-analysis of the deposited data

Results flagged for a closer look

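In 7 of 32 sets of a cyclase in a group, the highest or lowest mouse lay far from the others relative to the range of its group, by Dixon's criterion; chance alone gives this in about 1 in 20 sets. Adcy1 was 76.5 CPM in saline knockout mouse 3, where the next lowest mouse had 223 CPM. Adcy8 was 38.7 CPM in amphetamine knockout mouse 3, against 21.9 CPM in the next. Adcy3 was low in a single mouse in 3 groups: 45.2 CPM in saline control mouse 5 (next 64.7 CPM), 59.3 CPM in amphetamine control mouse 3 (next 67.9 CPM) and 50.3 CPM in amphetamine knockout mouse 2 (next 61.8 CPM). Adcy6 was 45.2 CPM in saline control mouse 4, where the next had 35.9 CPM. Adcy7 was 4.75 CPM in amphetamine control mouse 3, where the next had 7.85 CPM. Of the 7 values, 4 came from the libraries that stand apart on principal components.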

How the results depend on the processing

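No cyclase was called under any setting run. The number of all genes called moved: for amphetamine in control mice it was 199 with DESeq2, 75 with only the groups compared and 183 without the 4 libraries that stand apart (a setting chosen after seeing the data), against 1. For amphetamine in knockout mice it was 5 with the replicate block, 3 with limma voom, 96 with DESeq2, 0 with only the groups compared and 3 without the 4 libraries, against 1. For the genotypes under amphetamine it was 103 with DESeq2 and 1 without the 4 libraries, against 0, and for the difference of responses 14 with DESeq2, against 0. The cause was not tested. Among 272 fold changes of the cyclases under settings other than leaving out 1 mouse, 262 kept their direction and side of the threshold. With the replicate block, Adcy1 in knockout against control under amphetamine turned to 0.024. Without the 4 libraries, values turned to -0.016 for Adcy3 under amphetamine in control mice, and to 0.14 for Adcy5, -0.055 for Adcy6 and -0.15 for Adcy8 in knockout mice. They also turned to 0.066 for Adcy1, -0.036 for Adcy3 and 0.00088 for Adcy9 in the saline genotypes, and to -0.17 for Adcy1 and -0.087 for Adcy9 in the difference of responses. Leaving out 1 mouse at a time kept the direction of 435 of 456 fold changes; the number of all genes called ran from 0 to 4 for amphetamine in control mice and from 0 to 3 in knockout mice, and was 0 in the other comparisons. The ranges that crossed 0 were, on the log2 scale: for amphetamine in control mice, -0.016 to 0.14 for Adcy3; for amphetamine in knockout mice, -0.095 to 0.028 for Adcy2 and -0.035 to 0.37 for Adcy8; for the saline genotypes, -0.079 to 0.068 for Adcy3, -0.14 to 0.034 for Adcy5, -0.14 to 0.017 for Adcy6, -0.015 to 0.34 for Adcy7 and -0.15 to 0.033 for Adcy8; for the amphetamine genotypes, -0.32 to 0.17 for Adcy1 and -0.011 to 0.057 for Adcy2; and for the difference of responses, -0.074 to 0.42 for Adcy1 and -0.073 to 0.30 for Adcy9. Mice with the same number in their titles were little alike. Of 27 same-number pairs, 5 had a correlation of deviations over 0.1 (range -0.49 to 0.23). The own number correlated best in 4 of 54 cases. In the authors' labels the amphetamine knockout mice are numbered with a gap, so title numbers in that group shift against the authors' numbers. Neither this check nor the replicate block can therefore decide whether the authors' numbers pair those mice. Counts of 311 or more per gene leave the spread between mice as the limit.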
